A study of Mus musculus with 9 samples.

Results

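The genes described here are 10 well-known transcriptional targets of the tumour suppressor p53: Cdkn1a, Mdm2, Bax, Ccng1, Sesn1, Trp53inp1, Phlda3, Zmat3, Eda2r and Pmaip1. They were picked by name, and each was read from the probe sets that the platform annotation assigns to that single symbol. By this rule 8 of the 10 genes were measured, with 1 probe set each, among 19934 genes with a probe set of 1 symbol. The Cdkn1a probe set lists 2 symbols, so no value is given for it, and Bax was not analysed here.

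The tissue was the aortic valve of C57BL/6J mice, dissected at postnatal day 1 and kept in culture. A sample was a pool of valves from 5 to 6 pups, so an array reports a pool and not an animal. Pools were kept for 48 hours on floating filters in serum-containing medium with 0.001% DMSO (the vehicle control), with all-trans retinoic acid (ATRA) dissolved in DMSO at 1 µmol/L, or with LE540, an antagonist of retinoic acid receptors. The labels give no dose or vehicle for LE540, no sex for the pups and no genetic modification in any group. Each group had 3 arrays labelled as biological replicates, 9 in all, and the values are normalized probe set intensities on a linear scale.

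p53 is a transcription factor that is kept scarce by the ubiquitin ligase Mdm2 and accumulates after DNA damage and other stresses. It binds DNA as a tetramer at response elements made of half-sites, and its targets arrest the cell cycle, repair damage, restrain growth signalling or promote apoptosis. Because Mdm2 is itself a target, the pathway contains a negative feedback loop. Valve interstitial cells and endothelial cells make up the aortic valve, and retinoic acid acts on them through nuclear receptors that bind other DNA elements.

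Promoter sequence from RefSeq (GRCm38.p6) shows where letters of a p53 response element lie beside these genes. A window ran from 250 bases before to 50 bases after each gene's start, and the p53 half-site was searched in it; the half-site equals its own reverse complement, so 1 search covers both strands. Of the 8 measured genes, 5 had a window that was searched and 3 of these held a half-site. The search of the listed genes passed over a chromosome that the count over all windows includes. Over all 32851 windows of 300 bases, 8.36% held one. That is a share of windows and not of genes, and a gene such as Sesn1 can have more than 1 window. Counted by window, 5 of the 9 searched windows of the listed genes, measured or not, held a half-site. The stretches around the matches are shown for the feedback gene and the 2 growth-control genes, since they are the measured genes with a match; capitals mark the half-site.
Mdm2 (chr10:117710910-117710969, minus strand): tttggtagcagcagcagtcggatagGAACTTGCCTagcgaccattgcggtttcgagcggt
Ccng1 (chr11:40755437-40755496, minus strand): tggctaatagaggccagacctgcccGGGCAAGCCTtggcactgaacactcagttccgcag
Sesn1 (chr10:41887241-41887300, plus strand): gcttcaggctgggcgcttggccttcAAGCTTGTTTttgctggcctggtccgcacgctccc
The first base of the match lies 186 bases before the start in Mdm2, 185 in Ccng1 and 173 in Sesn1, whose other window held no match. The windows of Phlda3 and Eda2r held no half-site, which says only that these letters are not in those windows. A match is a description of the letters and not evidence of binding.

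Beside these genes, array medians over all rows of the table ran from 123.61 to 128.13. Pairwise correlations over probe sets with a listed gene ran from 0.956 to 0.991. LE540 replicate 1 stood apart, with correlations of 0.956 to 0.969 to the other arrays. Mean intensities of all 12 valve interstitial markers lay above the mean array median of the probe sets with a listed gene. The same held for 9 of 10 cardiomyocyte, 8 of 10 macrophage and 7 of 10 endothelial markers. The macrophage gene Cd163 was below the lower quartile of the probe sets with a listed gene on every array. Xist, which is expressed from the inactive X chromosome of females, ran from 2294 to 2903 on the DMSO arrays, from 85.7 to 1393 with ATRA and from 61.6 to 1652 with LE540. All 3 DMSO arrays were above the 6 treated arrays. In such bulk tissue, fewer cells of a type and less RNA per cell cannot be told apart.

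None of the 8 p53 targets passed the test in any of the 3 comparisons (limma, Benjamini-Hochberg adjusted p under 0.1 over all 23397 probe sets tested), and none differed over 2-fold. For ATRA vs DMSO 0 of 8 passed, where 0.0812% of all probe sets did; 1 had an unadjusted p under 0.05, where 4.7% of all did. For LE540 vs DMSO 0 of 8 passed against 0.0299% of all, with 2 at an unadjusted p under 0.05 against 8.8%. For ATRA vs LE540 0 of 8 passed against 0.603% of all, with 1 at an unadjusted p under 0.05 against 9.54%. The clearest separation was that of Phlda3, an inhibitor of Akt signalling, which was 1.39-fold above the DMSO mean in both treated groups without passing. The plot of member intensities by array shows the values that follow.

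**Figure D1:**
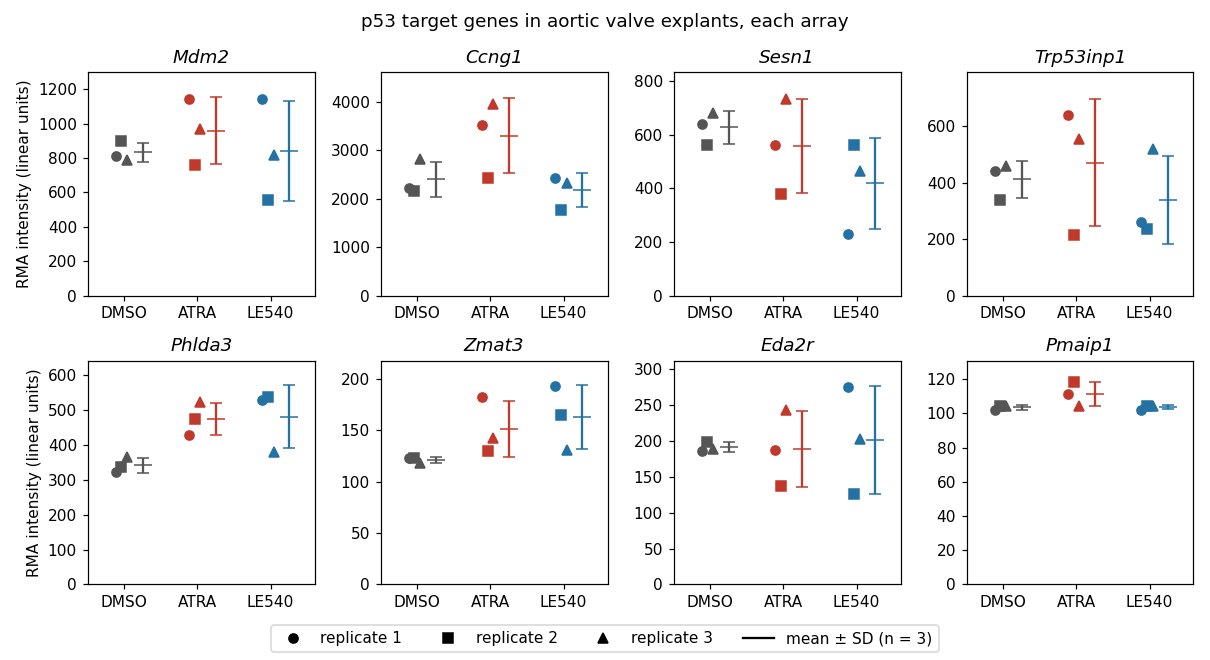
RMA intensity (linear units, axes from 0) of the 8 measured p53 target genes on each array, by group, with the marker shape giving the replicate number and the bar the mean ± SD (n = 3). The Phlda3 and Zmat3 values of both treated groups lie above all 3 DMSO values, and the DMSO arrays are closely grouped for Eda2r and Zmat3.

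Mdm2, the ubiquitin ligase that removes p53, measured 812, 898 and 790.3 on the 3 DMSO arrays, 1146, 759 and 971 with ATRA, and 1143, 558 and 820.3 with LE540. The LE540 arrays held both a value near the top and the lowest value of all 9, and the 3 groups overlapped. Group means were 833 ± 56.7, 959 ± 194 and 841 ± 293 (SD, n = 3 each). The log2 change was 0.18 for ATRA vs DMSO (95% interval -0.38 to 0.75, adjusted p = 0.999). It was -0.05 for LE540 vs DMSO (-0.61 to 0.52, adjusted p = 0.966) and 0.23 for ATRA vs LE540 (-0.34 to 0.80, adjusted p = 0.812). Mdm4, the partner of Mdm2 that also binds p53, had log2 changes of -0.12, -0.12 and -0.01 in the same order, none of which passed.

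Ccng1, which encodes cyclin G1, a partner of the phosphatase PP2A that acts on Mdm2, was the brightest of the 8 probe sets. Its intensity was 2222, 2166 and 2806 with DMSO, 3508, 2434 and 3951 with ATRA, and 2434, 1773 and 2330.4 with LE540. ATRA replicates 1 and 3 were the highest of the 9 arrays, while ATRA replicate 2 lay below DMSO replicate 3. ATRA replicate 2 equalled the highest LE540 array, so the ATRA and LE540 ranges met without crossing. At least 2 arrays shared 1 value in 37% of probe sets tested. The means were 2398 ± 355, 3297 ± 780 and 2179 ± 356. For ATRA vs LE540 the log2 difference was 0.58 (SE 0.21, 95% interval 0.12 to 1.05, 1.50-fold), with an unadjusted p of 0.0200 and an adjusted p of 0.402 from limma. Arrays of the same replicate number differed by 0.53, 0.46 and 0.76, higher with ATRA in 3 of 3 pairs, and with the replicate number as a block the adjusted p was 0.156. The ATRA vs DMSO difference was 0.44 (SE 0.21, -0.03 to 0.91, adjusted p = 0.999) and that of LE540 vs DMSO was -0.14 (-0.61 to 0.32, adjusted p = 0.851). By replicate number ATRA and DMSO differed by 0.66, 0.17 and 0.49. With the block in limma the unadjusted p for ATRA vs DMSO was 0.0107 and the adjusted p 0.546. Adjusted for the score of Y-linked genes, the ATRA vs DMSO difference was 0.06, and without ATRA replicate 3 it was 0.30.

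Sesn1 encodes sestrin 1, a stress protein that restrains the growth kinase complex mTORC1. It measured 639.9, 560.0 and 681 with DMSO, 560.0, 379 and 731 with ATRA, and 230.1, 560.0 and 464 with LE540. The lowest value belonged to LE540 replicate 1, the array that stood apart, and the highest LE540 array equalled the lowest DMSO array. DMSO replicate 2, ATRA replicate 1 and LE540 replicate 2 shared the single value 559.97. Such repeats are common here, with at least 3 arrays at 1 value in 16.7% of probe sets tested. The means were ordered as DMSO (627 ± 61.5), ATRA (557 ± 176) and LE540 (418 ± 170), and neighbours in that order overlapped. For LE540 vs DMSO the log2 difference was -0.68 (SE 0.34, 95% interval -1.44 to 0.09, adjusted p = 0.591), the largest in size among the 8 genes in the 3 comparisons. Without LE540 replicate 1 it was -0.29. The other differences were -0.22 for ATRA vs DMSO (-0.98 to 0.55, adjusted p = 0.999) and 0.46 for ATRA vs LE540 (-0.31 to 1.22, adjusted p = 0.720), which was 0.07 without LE540 replicate 1.

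Trp53inp1 encodes a nuclear and autophagy-linked protein that promotes p53 activity and cell death. It gave 440.1, 337 and 459 with DMSO, 640.1, 216 and 555 with ATRA, and 261, 235 and 518 with LE540. The ATRA arrays held both the highest and the lowest value of all 9, so no group stood apart. Its residual SD of 0.62 on the log2 scale was higher than that of 97.1% of probe sets tested. The log2 differences were 0.06 (ATRA vs DMSO, 95% interval -0.92 to 1.03), -0.37 (LE540 vs DMSO, -1.34 to 0.61) and 0.42 (ATRA vs LE540, -0.55 to 1.40), with adjusted p-values of 0.999, 0.808 and 0.801. With 1 array left out the LE540 vs DMSO difference ranged from -0.72 (without LE540 replicate 3) to -0.15 (without LE540 replicate 2), and that of ATRA vs LE540 from 0.13 (without ATRA replicate 1) to 0.91 (without ATRA replicate 2). Intervals this wide do not show that the groups act alike.

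Phlda3 encodes a pleckstrin homology protein that competes with Akt for membrane lipids. It read 323, 337 and 366 on the DMSO arrays, 430.1, 474 and 523 on the ATRA arrays, and 530.3, 537 and 379 on the LE540 arrays. All 6 treated arrays were above all 3 DMSO arrays, while the treated groups overlapped each other. The means were 342 ± 21.9, 476 ± 46.4 and 482 ± 89.5. For ATRA vs DMSO the log2 difference was 0.47 (SE 0.15, 95% interval 0.13 to 0.82, 1.39-fold), with an unadjusted p of 0.0124 and an adjusted p of 0.889. For LE540 vs DMSO it was 0.48 (SE 0.15, 0.14 to 0.82, 1.39-fold), with an unadjusted p of 0.0116 and an adjusted p of 0.529. An exact two-sided permutation test gave p = 0.1 for each, the smallest that 3 arrays against 3 allow. Both comparisons share the 3 DMSO arrays, so they are not independent. ATRA and LE540 differed by -0.01 (-0.35 to 0.34, adjusted p = 0.994).

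Beside the Phlda3 values, the DMSO arrays also had the 3 highest Xist values. With a score of Y-linked genes as a covariate the Phlda3 differences were 0.55 for ATRA vs DMSO and 0.53 for LE540 vs DMSO. The score did not follow Xist on every array, with 1.25 beside an Xist of 1361 on LE540 replicate 3. The part of sex composition in the Phlda3 differences was not tested, and it cannot be told apart from treatment here. The Phlda3 difference for LE540 vs DMSO depended on single arrays. Without LE540 replicate 3 it was 0.64 and passed (adjusted p = 0.0859), and without LE540 replicate 1 it was 0.40 (adjusted p = 0.870). Calls rose over the whole array without LE540 replicate 3, where 297 of 23397 probe sets passed in limma, against 7 with all arrays. An unadjusted p under 0.05 was then held by 15.1% of all probe sets, against 8.8%.

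Zmat3 encodes a zinc finger RNA-binding protein that regulates splicing and RNA stability. Its intensity was 123, 123 and 118 with DMSO, 182, 130 and 142 with ATRA, and 193, 165 and 131 with LE540. As with Phlda3, every treated array was above every DMSO array, although the lowest treated value of 130 was close to the highest DMSO value of 123. The probe set was dim, above the array's median of the probe sets tested on 4 of 9 arrays. The means were 121 ± 2.93, 151 ± 27.6 and 163 ± 31.3. The log2 difference was 0.30 for ATRA vs DMSO (SE 0.17, 95% interval -0.08 to 0.69, adjusted p = 0.999) and 0.41 for LE540 vs DMSO (SE 0.17, 0.02 to 0.79, unadjusted p = 0.0393, adjusted p = 0.553). It was -0.10 for ATRA vs LE540 (-0.49 to 0.28, adjusted p = 0.879). Without LE540 replicate 1 the LE540 vs DMSO difference was 0.28.

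Eda2r, an X-linked gene for a receptor of the ectodysplasin A2 ligand, and Pmaip1, which encodes the apoptosis inducer Noxa, belong to the cell death arm. Eda2r measured 187, 199 and 189 with DMSO, 188, 137 and 243 with ATRA, and 276, 126 and 203 with LE540. Its treated arrays lay both above and below the DMSO arrays, and the means of 191 ± 6.61, 189 ± 52.9 and 202 ± 74.8 were close. The log2 differences were -0.05 for ATRA vs DMSO (95% interval -0.70 to 0.60), 0.00 for LE540 vs DMSO (-0.65 to 0.65) and -0.06 for ATRA vs LE540 (-0.71 to 0.59).

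Pmaip1 measured 102, 104 and 104 with DMSO, 111, 118 and 104 with ATRA, and 102, 104 and 104 with LE540. It was below the array median on all 9 arrays, and 5 of the 9 shared the single value 104.42. Such repeated values occur elsewhere in the table: 1.89% of probe sets tested had at least 5 arrays at 1 value. The widest of the 3 differences, 0.10 for ATRA vs DMSO (95% interval -0.09 to 0.30), did not pass, and the values at or near 104 carry little information on this gene.

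Taking the 8 genes by comparison, ATRA vs DMSO gave 6 higher and 2 lower estimates with a median log2 change of 0.14, beside -0.01 over all probe sets tested. Adjusted for the Y-linked score, the median was -0.04. Phlda3 and Zmat3 were the 2 of 8 whose groups did not overlap, where 11.3% of all probe sets had no overlap. LE540 vs DMSO gave 4 higher and 4 lower estimates, with a median of -0.02 beside 0.02 over all probe sets. Its 2 genes without overlap were again Phlda3 and Zmat3, against 12.6% of all. ATRA vs LE540 gave 5 higher and 3 lower with a median of 0.17 beside -0.03, and 0 of 8 genes were without overlap, against 11.5% of all. A background share of this size corresponds to about 1 gene in 8, and these counts are given as descriptions.

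**Figure D2:**
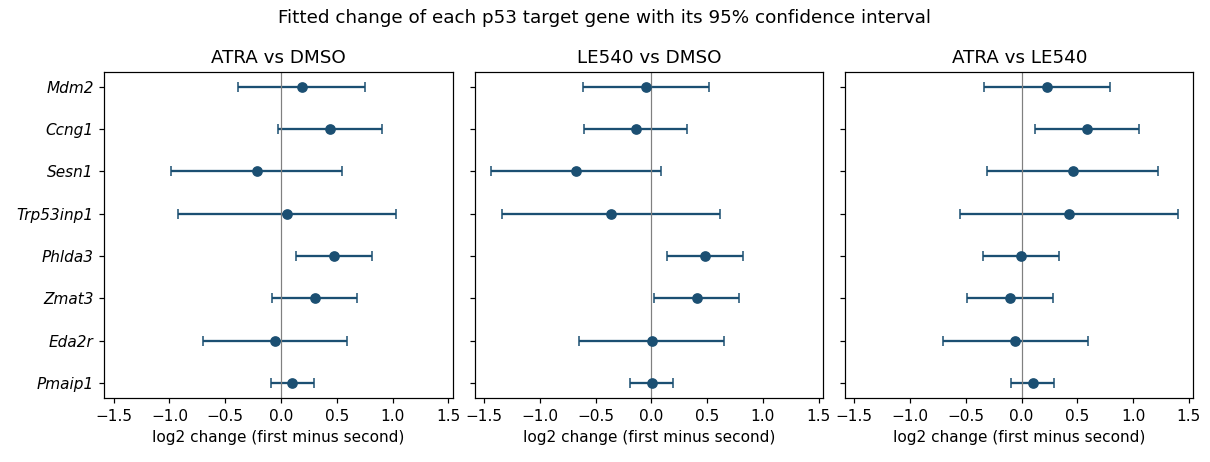
Fitted log2 change (first group minus second) of each measured p53 target gene in the 3 comparisons, with its 95% confidence interval from limma. The intervals of Phlda3 for both comparisons with DMSO, of Zmat3 for LE540 vs DMSO and of Ccng1 for ATRA vs LE540 lie above 0, and none of these 4 passed after adjustment over 23397 probe sets.

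Spread between arrays of 1 group differed widely among the 8 genes, from a residual SD above that of 97.1% of probe sets for Trp53inp1 and 51.9% for Phlda3 to 1.78% for Pmaip1. The median SD of log2 intensity within the DMSO group was 0.0942 for the 8 genes and 0.127 for all probe sets tested. Within ATRA it was 0.332 against 0.147, and within LE540 it was 0.402 against 0.197. All 8 genes had a larger SD with ATRA than with DMSO, as had 56.6% of all probe sets, and 7 of 8 had a larger SD with LE540, against 68.2% of all; the exception was Pmaip1. These shares are descriptions, since the genes share the same 9 arrays and no test of spread was run. The model assumes 1 spread for all groups.

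The wide values did not fall on the same array for every gene. ATRA replicate 2 was the lowest of its group for 6 of 8 genes, where 34.2% of all probe sets were, and the exceptions were Phlda3 and Pmaip1. LE540 replicate 2 was the lowest for 4 of 8 (32.6% of all) and DMSO replicate 2 for 3 of 8 (35.4% of all). For Ccng1 and Trp53inp1, replicate 2 was the lowest in all 3 groups, as it was for 6.15% of all probe sets. No DMSO array held the highest value of any of the 8 genes. LE540 replicate 1 held the highest Zmat3 and Eda2r values and the lowest Sesn1 value. ATRA replicate 2 also had a Y-linked score of -0.03, the lowest of the ATRA arrays (1.33 and 1.35 on the others), and LE540 replicate 2 had -1.52, the lowest of its group (1.04 and 1.25). DMSO replicate 2 had -2.50, the lowest of its group as well (-1.08 and 0.16). The part of sex composition in this spread was not tested.

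**Figure D3:**
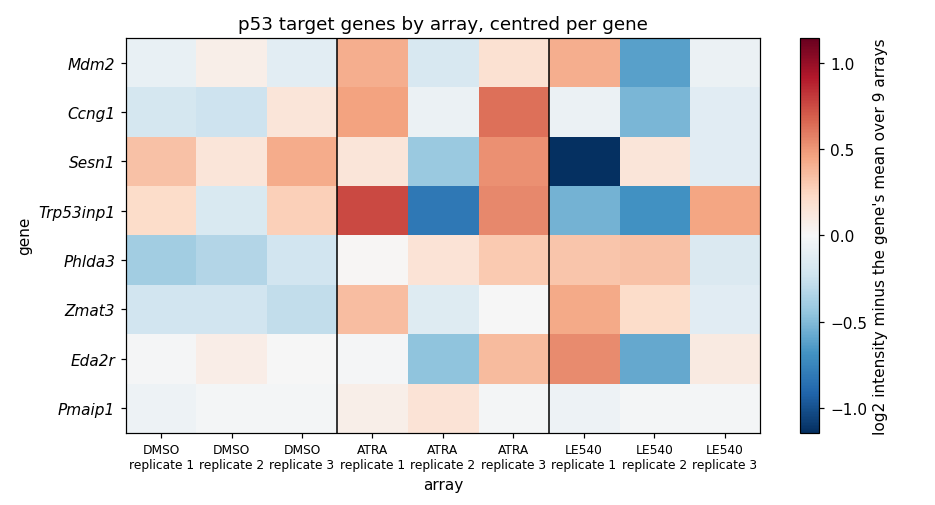
Log2 intensity of the 8 measured p53 target genes on each array minus the gene's mean over the 9 arrays (red higher, blue lower), with vertical lines between the groups. ATRA replicate 2 and LE540 replicate 2 are blue for Mdm2, Trp53inp1 and Eda2r, and the darkest blue cell is Sesn1 in LE540 replicate 1.

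The genes whose pattern over the 9 arrays was most like that of Mdm2 among 17065 genes searched were Aff4 (Pearson r = 0.967), Klc3 (0.963), Cd163 (0.962), Pias2 (0.961) and Gzmc (0.960). No other member of the p53 targets was among them. Only the top of the ranking is given, which does not show whether the other members followed Mdm2. Cd163 and Gzmc were below the lower quartile of the probe sets tested on all 9 arrays. These correlations describe 9 arrays that share preparation and normalization.

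Of 32 further p53 target genes, 30 were measured. In ATRA vs DMSO, where 0.0812% of all probe sets passed, 1 of them passed. This was Ak1, which encodes an adenylate kinase, with 239, 264 and 275 on the DMSO arrays, 450.3, 482 and 506 on the ATRA arrays and 220.1, 263 and 267 on the LE540 arrays. Every ATRA array was above every other array. Ak1 rose with ATRA over DMSO by 0.89 on the log2 scale (SE 0.11, adjusted p = 0.0512) and was higher with ATRA than with LE540 by 0.94 (adjusted p = 0.0170). With 1 array left out in turn, the ATRA vs DMSO difference of Ak1 stayed between 0.83 and 0.93 and passed in 1 of 9 cases (without LE540 replicate 1; adjusted p from 0.0357 to 0.309), and the ATRA vs LE540 difference passed in 9 of 9. LE540 vs DMSO gave -0.06 for Ak1. The other 29 did not pass. For ATRA vs DMSO the list gave 22 higher and 8 lower estimates (median 0.06, beside -0.01 over all probe sets). Of all probe sets 48.5% were higher.

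For LE540 vs DMSO, 0 of these 30 passed in limma and 5 had an unadjusted p under 0.05, with 16 higher and 14 lower and a median of 0.01. Of all probe sets 0.0299% passed, 8.8% had an unadjusted p under 0.05 and 54.7% were higher. The 5 were Btg2, Sesn2, Perp, Plk2 and Plk3, all with higher estimates. Sesn2, a sestrin like Sesn1, measured 189, 177 and 204 with DMSO, 189, 213 and 189 with ATRA, and 293, 252 and 291 with LE540. All 3 LE540 arrays were above the other 6. The Sesn2 log2 difference for LE540 vs DMSO was 0.55 (SE 0.11, unadjusted p = 0.000628, adjusted p = 0.256), opposite in sign to that of Sesn1. Sesn3, the third sestrin, had estimates of -0.46 for ATRA vs DMSO and -0.51 for LE540 vs DMSO, neither of which passed. For ATRA vs LE540, where 0.603% of all probe sets passed, Ak1 alone of the 30 passed and the median was -0.02.

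Sesn2 is also a known target of Atf4, the transcription factor of the integrated stress response, and genes of that response stood beside it. All 15 measured integrated stress genes had higher estimates for LE540 vs DMSO (median 1.12), where 54.7% of all probe sets did. Among them Atf4 had 1.12 and did not pass in limma (adjusted p = 0.370). The 2 that passed, where 0.0299% of all did, were Ddit3 (log2 change 1.78, adjusted p = 0.0917) and Mthfd2 (1.78, adjusted p = 0.0917). Each passed in 3 of 9 cases when 1 array was left out, with the change between 1.62 and 2.01 for Ddit3 and between 1.62 and 1.94 for Mthfd2; the call was lost without any 1 of the DMSO arrays, ATRA replicates 2 and 3 or LE540 replicate 1. Their summed intensity ran from 15622 to 24137 with LE540, from 7979 to 9804 with DMSO and from 8046 to 10212 with ATRA. For ATRA vs DMSO 7 of the 15 were higher, with a median of -0.04 and 0 passed (2 at an unadjusted p under 0.05). Against LE540, 7 of the 15 were lower with ATRA and passed, where 0.603% of all probe sets passed. Asns, Ddit3, Mthfd2 and Psat1 were among the 7. The part of the stress response in the p53 target values was not tested.

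Among 17 measured p53 cofactors and regulators, 0 passed in each comparison in limma, with 1 at an unadjusted p under 0.05 for ATRA vs DMSO, 2 for LE540 vs DMSO and 1 for ATRA vs LE540. In the same order 4.7%, 8.8% and 9.54% of all probe sets had such a p. Hipk2, a kinase that phosphorylates p53, had the largest estimate for ATRA vs DMSO (0.63, adjusted p = 0.898), followed in size by the checkpoint kinase Chek1 (-0.36). Atr, the replication stress kinase, and Ep300, an acetyltransferase, both had -0.41 for LE540 vs DMSO. Trp53 itself was not analysed here. Of the 6 other cyclin-dependent kinase inhibitors measured, 0 passed in any comparison, and 0, 1 and 0 had an unadjusted p under 0.05; Cdkn1c had 0.52 for LE540 vs DMSO (adjusted p = 0.461).

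The apoptosis genes of the BCL2 family, 12 of 13 measured, had 0 passes in each comparison, with 0, 3 and 2 at an unadjusted p under 0.05. In the same order 4.7%, 8.8% and 9.54% of all probe sets had such a p. For LE540 vs DMSO the survival gene Bcl2 had -0.53 and the death-promoting Bcl2l11 had -0.63, and neither passed. In the sestrin, mTORC1 and Akt list, 12 of 15 measured, 0 passed, with 0, 2 and 3 at an unadjusted p under 0.05. Of 23 measured cell cycle genes, 21 had lower estimates for ATRA vs DMSO (median -0.30) and 22 for LE540 vs DMSO (median -0.52), with 0 passed and 2 and 9 at an unadjusted p under 0.05. Of all probe sets 48.5% and 54.7% had higher estimates in these 2 comparisons. The summed intensity of the cell cycle genes ran from 12023 to 15182 with DMSO, from 10218 to 12762 with ATRA and from 7311 to 14969 with LE540, so all the groups overlapped.

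**Figure D4:**
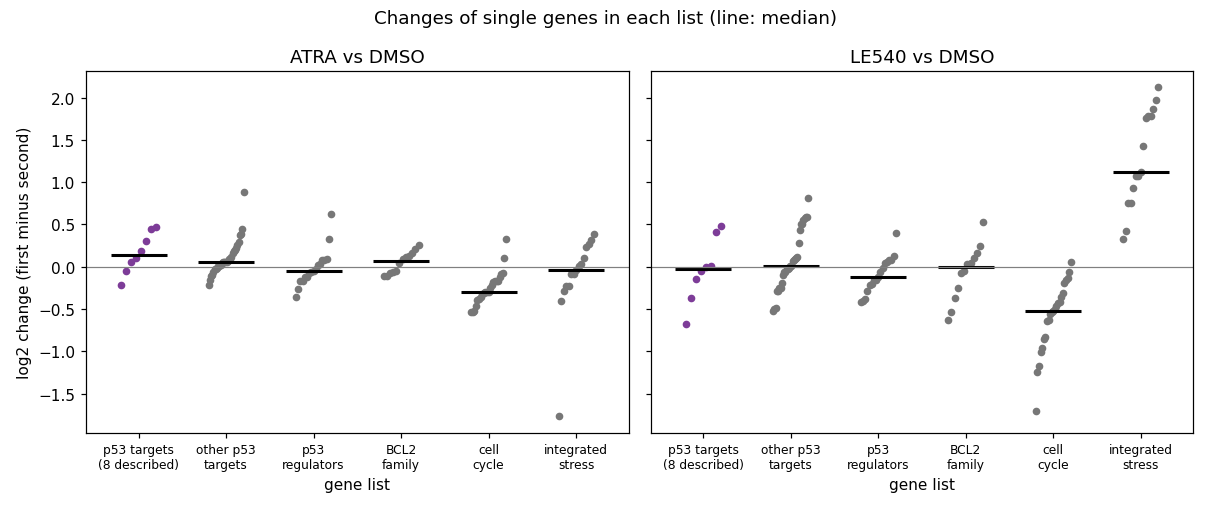
Log2 change (first group minus second) of single genes in 6 gene lists for ATRA vs DMSO and LE540 vs DMSO; each point is a gene and the line is the list's median. The 8 p53 targets lie between -0.68 and 0.48 with medians of 0.14 and -0.02, while the integrated stress genes have a median of 1.12 for LE540 vs DMSO.

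Marker levels of the cell types that the explants could hold were summed per array. Valve interstitial markers summed to 21553 to 27700 with DMSO, 28380 to 32098 with ATRA and 15655 to 25003 with LE540, and 9 of 12 had higher estimates with ATRA while 10 of 12 had lower estimates with LE540. Endothelial markers summed to 1354 to 3173, 2132 to 5817 and 1318 to 3232, cardiomyocyte markers to 12021 to 24820, 11655 to 19849 and 11209 to 20334, and macrophage markers to 1893 to 4154, 1588 to 3341 and 2392 to 3428, in the same order. The ATRA range of the valve markers stood above both others, and the ranges of the other types overlapped. Of the valve markers 0 passed in limma vs DMSO, with 3 at an unadjusted p under 0.05 for each compound. Such a p was found in 4.7% of all probe sets for ATRA and 8.8% for LE540. For ATRA vs LE540 11 of 12 were higher, and 4 had an unadjusted p under 0.05 (9.54% of all probe sets). In that comparison 1 of them passed (0.603% of all), Vcan, with 1.29 and an adjusted p of 0.0608. All 10 endothelial markers had higher estimates with ATRA, both vs DMSO (median 0.48) and vs LE540 (median 0.52), and 0 passed in limma (0 and 2 at an unadjusted p under 0.05). The shares of all probe sets with such a p were 4.7% and 9.54%. Higher estimates were found in 48.5% of all probe sets for ATRA vs DMSO and 43.1% for ATRA vs LE540. For LE540 vs DMSO that share was 54.7%. Under the replicate block 1 endothelial marker, Emcn, passed for ATRA, with an adjusted p of 0.0601 vs DMSO and 0.0144 vs LE540. With that block 29 of all 23397 probe sets passed for ATRA vs DMSO and 221 for ATRA vs LE540. Without the block the adjusted p of Emcn in limma was 0.999 vs DMSO, where the ranges overlapped, and 0.449 vs LE540. Of the 10 cardiomyocyte markers 9 had lower estimates for ATRA vs DMSO (median -0.32), and of the 10 macrophage markers 6 were lower with ATRA and 8 with LE540, with 0 passed and 0 at an unadjusted p under 0.05. With a cardiomyocyte score as a covariate, the Phlda3 difference was 0.41 for ATRA vs DMSO and 0.49 for LE540 vs DMSO. The part of the other cell types in the p53 target values was not tested.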

How the data were processed

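The deposited values are linear probe set intensity values from Affymetrix arrays, which the authors made with Affymetrix Expression Console 1.1 and RMA (background correction, quantile normalization, probe summary), per the submitters' processing notes. Genome build and array scan details are not given in the sources used here. Probe sets were named from GEO's platform annotation, which can be old: of 28270 rows, 21780 had 1 symbol, 1617 several and 4873 no listed gene. Of the single-symbol entries, 21689 were found by Entrez identifier in the RefSeq table and 0 symbols differed. The 23397 probe sets with a symbol were tested.

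Log2 of the intensity was fitted with limma 3.58.1 in R 4.3.3: 3 group means over 9 arrays, 3 two-sided contrasts, Benjamini-Hochberg adjustment over all 23397. A probe set passed at an adjusted p under 0.1; both this and the 2-fold mark come from the series' design text. Intensities are means ± SD over 3 arrays. Arrays have no depth in counts, and their number limits the precision. The labels call the pools biological replicates, and p-values measure the spread between these pools. The fit was tested on simulated data.

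The genes, lists and alternatives were chosen with earlier results of these data known. Named are all measured members, Mdm4, Ddit3, Atf4 and Xist. Of each other list a rule picked up to 4 genes that passed or else the 2 with the largest change, and only some of these are named. Btg2, Perp, Plk2, Plk3 and Sesn3 are also named and were chosen after their values were seen. The brightest probe set stood for a gene with several. A rule to name genes most like Cdkn1a could not be applied, since its probe set lists 2 symbols, and was applied to Mdm2.

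Replicate numbers are shared between groups, and the main fit did not use them. Deviations from group means correlated by number at 0.143 to 0.342 for ATRA and DMSO and 0.261 to 0.282 for ATRA and LE540, which pairs the samples by the rule used (every pair over 0.1), but at 0.00946 to 0.215 for LE540 and DMSO. Alternatives were the replicate block, the 2 compared groups alone, renormalization, median centring, a dim filter, all rows, 1 probe set per gene, a trended prior, array weights, Y-linked and cardiomyocyte covariates, and leaving out each array.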

Additional observations from a re-analysis of the deposited data

How the results depend on the processing

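Under 20 alternatives (11 settings and 9 arrays left out in turn), 445 of 480 member changes kept their sign and their side of the threshold, 34 reversed and 1 newly passed; the cause was not tested. With the replicate block 0 members passed in each comparison, and the lowest adjusted p of a member in limma was 0.156 (Ccng1, ATRA vs LE540). No member call changed, and Ddit3 (0.134) and Mthfd2 (0.114) no longer passed in LE540 vs DMSO. In limma with the block, 2 of 8 members had an unadjusted p under 0.05 for ATRA vs DMSO (6.55% of all probe sets). LE540 vs DMSO had 2 (11.3%) and ATRA vs LE540 had 1 (11.9%). Leaving out 1 array, members passed in LE540 vs DMSO ranged from 0 to 1 (Phlda3, 0.39 to 0.64). The 1 pass came without LE540 replicate 3, where 297 of all 23397 probe sets passed, against 7 in the main fit. The median member change ranged from 0.073 to 0.38 for ATRA vs DMSO and from -0.23 (without LE540 replicate 1) to 0.11 for LE540 vs DMSO, where the Y-linked covariate gave -0.28; for ATRA vs DMSO that covariate gave -0.042.

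For ATRA vs DMSO, leave-outs gave Sesn1 -0.44 to 0.034, Trp53inp1 -0.24 to 0.55 and Eda2r -0.25 to 0.16. For LE540 vs DMSO they gave Mdm2 -0.30 to 0.22, Ccng1 -0.23 to 0.00021, Trp53inp1 -0.72 to -0.15, Eda2r -0.26 to 0.31 and Pmaip1 -0.011 to 0.012. For ATRA vs LE540 they gave Mdm2 -0.035 to 0.48, Sesn1 0.075 to 0.72, Trp53inp1 0.13 to 0.91, Phlda3 -0.17 to 0.081, Zmat3 -0.25 to 0.028 and Eda2r -0.36 to 0.20.

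With the Y-linked covariate, ATRA vs DMSO reversed for Mdm2 (-0.14) and Trp53inp1 (-0.62), LE540 vs DMSO for Eda2r (-0.29) and ATRA vs LE540 for Phlda3 (0.017). The cardiomyocyte covariate reversed Trp53inp1 in ATRA vs DMSO (-0.013) and Pmaip1 in LE540 vs DMSO (-0.0011). Array weights reversed Eda2r in all 3 comparisons (0.050, -0.17 and 0.22) and Phlda3 in ATRA vs LE540 (0.071), which renormalization also reversed (0.0036). With 3 arrays a group, the 95% intervals of the members spanned 0.39 to 1.95 on the log2 scale, and Pmaip1 was below the array median throughout.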
